A study of Mus musculus with 14 samples.

Results

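The 10 genes described here are transcribed in fat cells of the mammary fat pad, the tissue into which 4T1 breast cancer cells were injected. They were chosen by symbol, as the rows named Adipoq, Fabp4, Plin1, Plin4, Cfd, Lep, Cidec, Car3, Retn and Pparg. Of the 10, 9 were listed among the 13414 genes of the tumours and 0 among the 11793 genes of the cultured cells, and Lep was listed in neither. In each table the lowest total count of a listed gene was 6, so a gene that is not listed may still have had a few reads.

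RNA of 8 tumours and 6 cultures was sequenced by MARS-seq, a bulk method that reads transcripts at their 3′ ends. 4T1 is a triple-negative mammary carcinoma line of BALB/c mice, and both of its derivatives carried a lentiviral hairpin RNA under doxycycline control, grown as selected pools of cells. The hairpin targeted TAZ (gene Wwtr1), a transcriptional coactivator of the Hippo pathway, in shTAZ cells and was a scrambled control in shC cells. The 4 shC and 4 shTAZ tumours grew in the mammary fat pads of immunocompetent female BALB/c mice, 8 weeks old in the study's methods, on doxycycline chow and were taken 6 weeks after injection. The 3 shC and 3 shTAZ cultures received doxycycline for 48 h. All 4 groups thus had the hairpin and the drug, although the labels give the treatment as none. A tumour library holds RNA of the cancer cells together with that of the mouse's own fat, vessels, leukocytes and stroma, and the hairpin acts only in the cancer cells.

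Mature fat cells store triglyceride in a single large lipid droplet, release fatty acids from it on demand, and secrete hormones. The nuclear receptor PPARγ, encoded by Pparg, drives their differentiation together with C/EBP proteins, and many genes of the lipid droplet and of fatty acid transport are its targets. In breast tumours that grow in a fat pad, fat cells lie at the margin of the tumour. Fabp4 and Pparg are less specific, since macrophages transcribe both and capillary endothelium transcribes Fabp4. Skeletal muscle also transcribes Car3.

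The promoters of Adipoq, Plin1 and Cidec, whose levels varied together across tumours, and that of Pparg, whose levels did so less, are shown because each holds letters that C/EBP proteins or CCAAT-binding factors are known to bind. The windows span 250 bases before to 50 bases after a start site (RefSeq, GRCm38.p6), 8 of the 10 members had an entry, and Cidec and Pparg are shown at 1 of their several start sites. Capitals mark matches to the C/EBP motif TTGCNNAA or to the CCAAT box, on either strand.
Adipoq, chr16:23146286-23146585, plus strand: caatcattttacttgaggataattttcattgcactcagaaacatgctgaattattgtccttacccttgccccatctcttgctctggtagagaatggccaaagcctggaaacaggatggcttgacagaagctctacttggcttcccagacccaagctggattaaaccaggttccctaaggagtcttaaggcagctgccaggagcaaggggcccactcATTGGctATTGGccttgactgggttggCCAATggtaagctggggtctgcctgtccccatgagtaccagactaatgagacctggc
Plin1, chr7:79732727-79733026, minus strand: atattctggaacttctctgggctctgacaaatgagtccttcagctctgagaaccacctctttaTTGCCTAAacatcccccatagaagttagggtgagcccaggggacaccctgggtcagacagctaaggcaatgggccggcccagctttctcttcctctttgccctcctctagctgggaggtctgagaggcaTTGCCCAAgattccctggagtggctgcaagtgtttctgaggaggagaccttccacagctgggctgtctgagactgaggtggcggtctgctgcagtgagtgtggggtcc
Cidec, chr6:113434715-113435014, minus strand: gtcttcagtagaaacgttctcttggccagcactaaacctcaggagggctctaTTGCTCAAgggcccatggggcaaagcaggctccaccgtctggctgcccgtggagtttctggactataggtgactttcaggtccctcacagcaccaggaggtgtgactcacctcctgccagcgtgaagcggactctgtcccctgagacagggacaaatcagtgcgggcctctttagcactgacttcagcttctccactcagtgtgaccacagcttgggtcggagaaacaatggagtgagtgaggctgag
Pparg, chr6:115421816-115422115, plus strand: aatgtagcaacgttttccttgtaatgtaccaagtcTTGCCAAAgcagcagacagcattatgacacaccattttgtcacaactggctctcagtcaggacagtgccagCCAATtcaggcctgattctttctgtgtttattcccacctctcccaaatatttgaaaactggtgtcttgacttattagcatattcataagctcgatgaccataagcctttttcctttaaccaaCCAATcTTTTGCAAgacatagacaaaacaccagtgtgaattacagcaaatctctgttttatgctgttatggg
The C/EBP letters occurred in 4 of the 11 windows of members (of Lep, Cidec, Pparg and Plin1) and in 10.8% of all 32851 promoters. CCAAT occurred in 4 of the 11 (of Pparg, Adipoq and Plin4) and in 37.4% of all. In the Pparg window, CCAAT and the C/EBP letters lay 22 and 16 bases before the start site, separated by 1 base. The half-site of PPAR and RXR receptors, AGGTCA, was found in 2 of the 11 windows, both of Pparg, and in 16.3% of all promoters. These matches describe the letters of the windows and say nothing about binding in the tumours.

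Adipocyte genes were abundant in 2 of the 8 tumours, shC tumour 2 and shTAZ tumour 2, and scarce in the other 6. The 9 listed genes took 0.0673% of all counts in shC tumour 2 (Wilson 95% interval from 0.0644 to 0.0703) and 0.0550% in shTAZ tumour 2 (0.0521 to 0.0580), where intervals reflect the number of counts alone. In shC tumours 1, 3 and 4 the share was 0.00931% (0.00891 to 0.00971), 0.00210% (0.00159 to 0.00279) and 0.00322% (0.00263 to 0.00396). In shTAZ tumours 1, 3 and 4 it was 0.00305% (0.00250 to 0.00372), 0.00554% (0.00452 to 0.00680) and 0.00594% (0.00505 to 0.00699). Each group therefore held 1 tumour with a high share, and the intervals of these 2 tumours lay far above those of the other 6. The means were 0.0205 ± 0.0314% in shC tumours and 0.0174 ± 0.0251% in shTAZ tumours (SD, n = 4 each), so that the spread within a group exceeded the difference between them. In bulk tissue, fewer fat cells and less RNA per fat cell cannot be told apart.

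**Figure D1:**
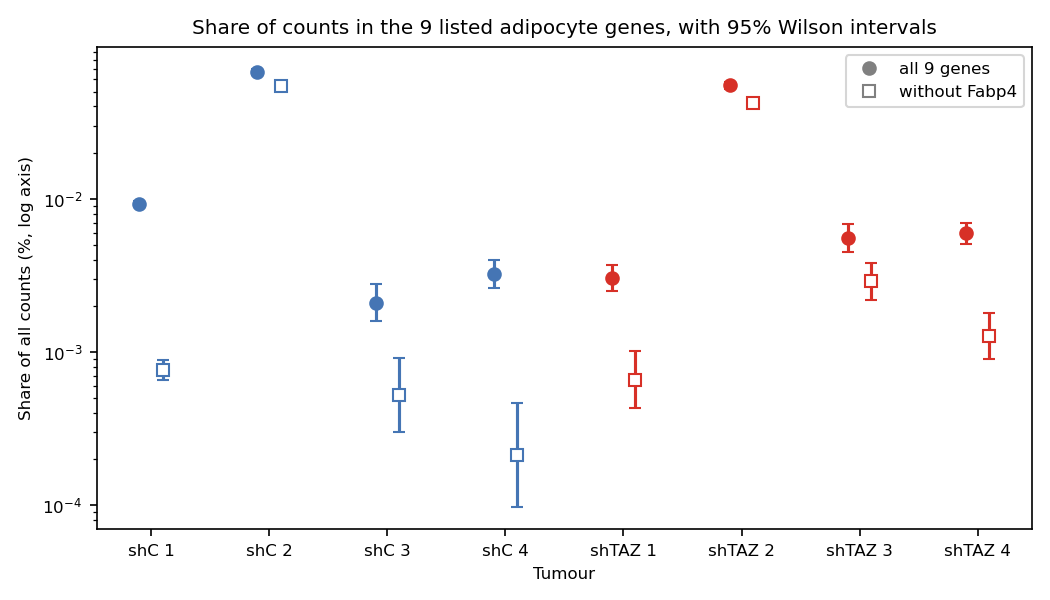
Share of all counts, in percent on a log axis, taken by the 9 listed adipocyte genes (filled circles) and by 8 of them without Fabp4 (open squares) in each shC (blue) and shTAZ (red) tumour, with 95% Wilson intervals. shC tumour 2 at 0.0673% and shTAZ tumour 2 at 0.0550% stood above the other 6, which reached at most 0.00931%.

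These 2 tumours held 13.4% of the counts of all genes and 56.6% of the 5883 counts of the adipocyte genes, or 95.03% once Fabp4 and Pparg were left out. Both were higher than each of the other 6 for 8 of the 9 listed genes, all but Pparg, and for 7 of the 8 with at least 20 counts in total. Of all 12562 genes with that many counts, 4.71% showed this order. The 2 tumours were singled out by the values of these same members, so the members' order is a description and not a test. Their total counts, 2968827 and 2421938, lay within the range of the others.

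Among the hormones and secreted proteins, Cfd, which encodes the complement protease adipsin (chr10:79890853-79892655, plus strand; GENCODE on GRCm38, as for the genes below), gave the most counts. Its level was 0.332, 338, 2.57 and 0.718 CPM (counts scaled to the library size after TMM normalization) in shC tumours 1 to 4. In shTAZ tumours 1 to 4 it was 1.57, 271, 15.5 and 2.10 CPM. Only the tumours numbered 2 passed 100 counts, with 984 and 650 reads, and shTAZ tumour 3 came next with 25. The lower of the 2 was 17.5 times the highest of the other 6. The groups overlapped, at 85.5 ± 169 CPM in shC and 72.5 ± 132 CPM in shTAZ tumours (SD, n = 4 each; exact permutation test, two-sided p = 0.943).

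Adipoq (chr16:23146536-23158028, plus strand) encodes adiponectin, a hormone made almost only by fat cells. It stood at 0.083, 29.6, 0 and 0 CPM in shC tumours 1 to 4 and at 0, 19.6, 2.48 and 0.840 CPM in shTAZ tumours 1 to 4. These are 2, 86, 0 and 0 reads against 0, 47, 4 and 2, so that 3 tumours had none. For them a count of 0 allows up to 1.31, 1.06 and 0.944 CPM of the raw total in shC tumour 3, shC tumour 4 and shTAZ tumour 1. The means, 7.41 ± 14.8 and 5.73 ± 9.30 CPM (SD, n = 4 each), did not differ beyond the spread (exact permutation test, p = 0.971).

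Retn (chr8:3655770-3660110, plus strand) encodes resistin, a hormone of fat cells in mice. It was at 1.87, 27.5, 0.428 and 0 CPM in shC tumours 1 to 4 and at 0.314, 23.3, 0.620 and 0 CPM in shTAZ tumours 1 to 4. The 45 reads in shC tumour 1, which had 22364483 counts in all, were close to the 56 of shTAZ tumour 2 but far below it in CPM. Its means were 7.45 ± 13.4 CPM in shC and 6.07 ± 11.5 CPM in shTAZ tumours (SD, n = 4 each; exact permutation test, p = 0.629). Leptin, the satiety hormone encoded by Lep (chr6:29060220-29073877, plus strand), was not listed in either table and has no value here.

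**Figure D2:**
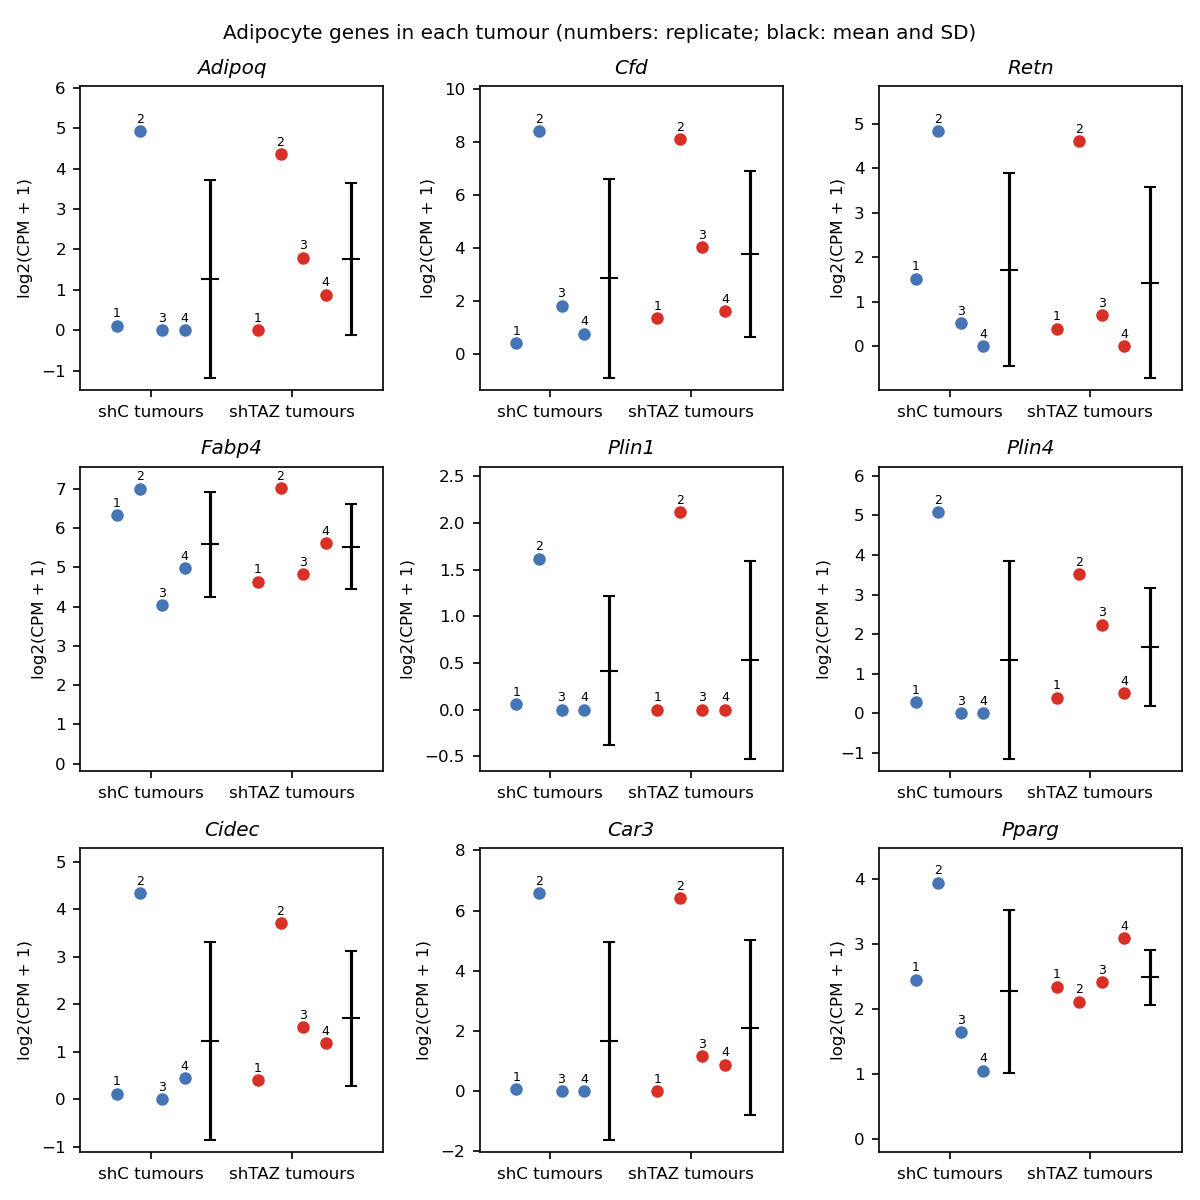
Level of each of the 9 listed adipocyte genes as log2(CPM + 1) in every shC (blue) and shTAZ (red) tumour, numbered by replicate, with the mean and SD of each group in black on that scale. The tumours numbered 2 were the highest 2 for every gene but Pparg, for which shC tumour 2 was at 14.4 CPM and shTAZ tumour 2 at 3.33 CPM.

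Of the proteins on the lipid droplet, Plin1 (chr7:79720218-79732903, minus strand) encodes perilipin 1, the coat protein of fat cells that gates lipolysis. It had 6 reads in shC tumour 2, 8 in shTAZ tumour 2 and 1 in shC tumour 1, and none in the other 5, which puts it at 2.06, 3.33 and 0.0415 CPM in those 3. With 15 reads in all, Plin1 was the least counted member. Its means were 0.526 ± 1.03 CPM in shC and 0.834 ± 1.67 CPM in shTAZ tumours (SD, n = 4 each; exact permutation test, p = 1.00).

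Plin4, a perilipin of nascent droplets, stood at 0.207, 33.0, 0 and 0 CPM in shC tumours 1 to 4 and at 0.314, 10.4, 3.72 and 0.420 CPM in shTAZ tumours 1 to 4. It was the member besides Pparg for which the tumours numbered 2 differed most from each other, shC tumour 2 being 3.17 times shTAZ tumour 2. The gene lies within a locus shared with Hdgfl2 on the other strand (chr17:56100591-56109803, minus strand), and whether the counting used strand is not given in the sources used here. The group means were 8.31 ± 16.5 and 3.72 ± 4.74 CPM (SD, n = 4 each; exact permutation test, p = 1.00).

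Cidec (chr6:113424634-113435760, minus strand) encodes a protein that fuses droplets into the single large one of white fat. It was at 0.083, 19.3, 0 and 0.359 CPM in shC tumours 1 to 4 and at 0.314, 12.1, 1.86 and 1.26 CPM in shTAZ tumours 1 to 4. Apart from the tumours numbered 2, no library had more than 3 reads. Its means were 4.93 ± 9.56 CPM in shC and 3.88 ± 5.51 CPM in shTAZ tumours (SD, n = 4 each; exact permutation test, p = 0.971).

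Car3 (chr3:14863512-14872523, plus strand), the carbonic anhydrase that is abundant in the cytosol of rodent fat cells, had the steepest contrast among members with more than 100 reads. Its reads were 1, 276, 0 and 0 in shC tumours 1 to 4 and 0, 201, 2 and 2 in shTAZ tumours 1 to 4, so that 99.0% of them were in the tumours numbered 2. At 94.9 and 83.8 CPM, the lower of these was 67.6 times the highest other tumour, shTAZ tumour 3 at 1.24 CPM. The group means were 23.7 ± 47.5 and 21.5 ± 41.6 CPM (SD, n = 4 each; exact permutation test, p = 0.971). The skeletal muscle list, summed over 11 genes, was at 362 CPM in shC tumour 2, at 101 CPM in shTAZ tumour 2 and at 47.7 to 112 CPM in the other 6. Its part in the Car3 value was not tested.

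Fabp4 and Pparg differed from the others in that the tumours numbered 2 held 23.1% and 24.5% of their reads, against 73.9% (Retn) to 99.0% (Car3) for the other 7 members. These are shares of raw reads, not corrected for depth, and shC tumour 1 had by far the deepest library, with 22364483 counts. Fabp4 (chr3:10204088-10208576, minus strand), the fatty acid carrier of the fat cell cytosol, was at 79.2, 128, 15.4 and 30.5 CPM in shC tumours 1 to 4 and at 23.9, 128, 27.3 and 47.9 CPM in shTAZ tumours 1 to 4. The tumours numbered 2 were again the highest 2 and nearly equal, but only 1.61 times shC tumour 1, which alone gave 1909 of the 2943 Fabp4 reads. The group means of Fabp4 were 63.2 ± 50.8 and 56.9 ± 48.9 CPM (SD, n = 4 each; exact permutation test, p = 0.886).

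Pparg was at 4.48, 14.4, 2.14 and 1.08 CPM in shC tumours 1 to 4 and at 4.09, 3.33, 4.34 and 7.56 CPM in shTAZ tumours 1 to 4. Of the tumours numbered 2, only the shC one was high, and shTAZ tumour 2, with 8 Pparg reads, ranked below all other shTAZ tumours. The means of Pparg were 5.54 ± 6.11 and 4.83 ± 1.87 CPM (SD, n = 4 each; exact permutation test, p = 0.914). An annotated antisense gene, Gm44079, overlaps Pparg (chr6:115360951-115490399, plus strand), so that a read from it could be counted with Pparg if strand was not used.

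The make-up of the adipocyte gene counts separated the same 2 tumours from the rest. In shC tumour 2 and shTAZ tumour 2, Cfd gave 49.3% and 48.8% of these counts, Fabp4 18.6% and 23.1%, and Car3 13.8% and 15.1%. In the other 6 tumours Fabp4 gave 47.8% to 93.4%. There were 0.377 and 0.474 Fabp4 reads for each Cfd read in the tumours numbered 2, and between 1.76 (shTAZ tumour 3) and 239 (shC tumour 1) in the other 6. The ratio of the CPM in shC tumour 2 to that in shTAZ tumour 2 had a median of 1.25 over the 9 genes and a range from 0.619 for Plin1 to 4.33 for Pparg.

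**Figure D3:**
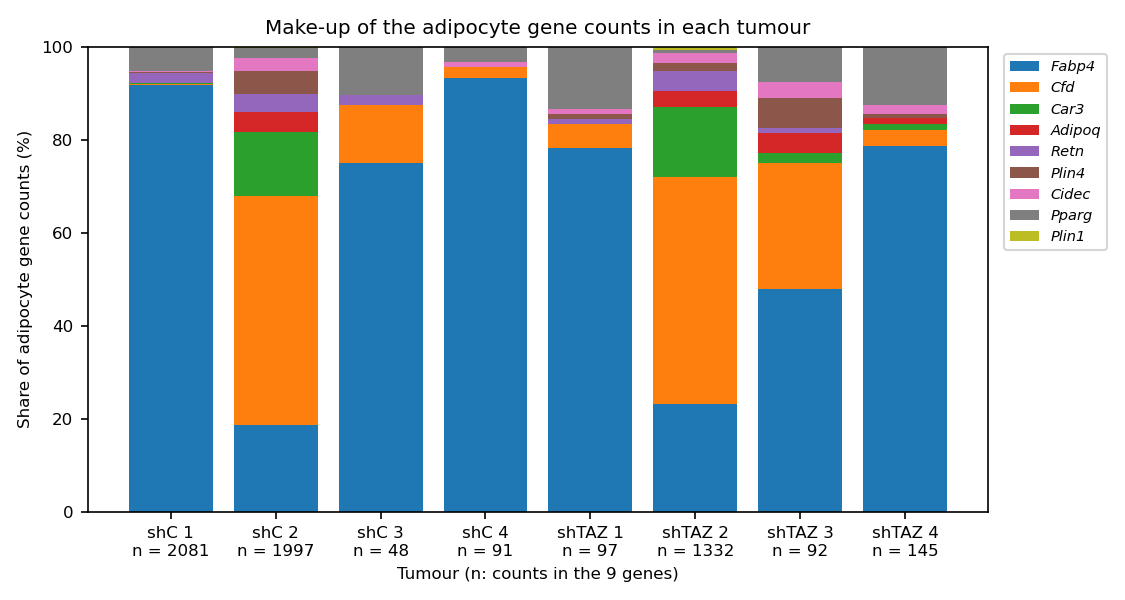
Share of each adipocyte gene, in percent, among the counts of the 9 listed genes in each tumour, with the number of these counts under each bar. Cfd and Car3 together made up most of shC tumour 2 and shTAZ tumour 2, whereas Fabp4 made up 47.8% to 93.4% of the other 6.

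Among the 6 other tumours, shTAZ tumours 3 and 4 had a few reads of Adipoq, Cidec, Car3 and Plin4. In reads, Adipoq had 4 and 2 there, Cidec 3 and 3, Car3 2 and 2 and Plin4 6 and 1. The shC tumours 3 and 4 together had 1 read over these 4 genes, of Cidec. In the same order of genes, shC tumour 1, the deepest library, had 2, 2, 1 and 5 reads, and shTAZ tumour 1 had 0, 1, 0 and 1. The numbers are near the limit of counting, and the genes did not pass the filter on low counts.

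The comparison of shTAZ with shC tumours asks whether loss of TAZ in the cancer cells went with a change of the adipocyte genes around them. Groups overlapped for all 9 listed members, with 0 of 9 separated against 2.39% of the 9196 genes tested. That share covers genes that passed the expression filter, which most members did not, and at so small a share 0 of 9 is uninformative. The exact permutation p ranged from 0.629 (Retn) to 1.00 (Plin1 and Plin4), where 4 against 4 tumours can at best reach 0.0286. For the members other than Fabp4 and Pparg, the tumour numbered 2 was by far the highest of each group. Every regrouping that joins these tumours gives a larger mean difference, so a low p was out of reach for these members. Their p-values therefore cannot tell whether the remaining tumours differed. Only Fabp4 and Pparg passed edgeR's expression filter, so that 2 of 9 had a test across all genes. In edgeR's quasi-likelihood test Fabp4 had a log2 fold change (shTAZ over shC) of −0.16 (SE 0.65, adjusted p = 0.986) and Pparg of −0.19 (SE 0.67, adjusted p = 0.982). Bounds of 2 SE on either side ran from −1.47 to 1.15 for Fabp4 and from −1.53 to 1.14 for Pparg, so that changes of more than 2-fold in either direction lie within them. The test called 0 of 9196 genes (0.0%), with 366 (3.98%) at an unadjusted p under 0.05, while DESeq2 called 4 genes and found 381 at an unadjusted p under 0.05. With no filter, the adjusted p of the 9 members ran from 0.945 (Plin4) to 0.9997 (Car3) in edgeR.

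The sign of these differences changed when single tumours were left out. Without shC tumour 2 the log2 fold change was 0.38 for Fabp4 and 0.72 for Pparg, and without shTAZ tumour 2 that of Fabp4 was −0.95. Leaving out shTAZ tumour 1 or 3 also turned the sign of Fabp4, to 0.10 and 0.05. Without both shC tumour 2 and shTAZ tumour 2, an alternative added after seeing the data, Fabp4 was at −0.39 and Pparg at 0.87, and none of these passed the threshold. The targeted gene itself, Wwtr1, was at 59.4, 28.9, 42.8 and 27.3 CPM in shC tumours 1 to 4 and at 22.01, 13.3, 17.4 and 25.2 CPM in shTAZ tumours 1 to 4. These groups did not overlap (39.6 ± 14.9 and 19.5 ± 5.21 CPM, SD, n = 4 each; exact permutation test, p = 0.0286, the smallest this design allows), although edgeR's adjusted p was 0.923. shTAZ tumour 2 had the lowest Wwtr1 level of the 8, and shC tumour 2 lay below shC tumours 1 and 3.

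The labels also give each library a code, with the prefix FG for tumours 1 and 2 and FM for tumours 3 and 4 of both groups. Both tumours rich in adipocyte reads carried FG. Within FG the shTAZ mean was lower than the shC mean for 8 of the 9 members (Plin1 was higher), for example by a difference of −33.1 CPM for Cfd and −27.2 CPM for Fabp4. Within FM it was higher for 8 and 0 for Plin1, with 7.15 CPM for Cfd and 14.6 CPM for Fabp4. The direction of the mean difference thus turned with the prefix for these 8, but the members varied together and are not separate results. Within FG the tumours numbered 2 gave most of the means, and within FM most members had only a few reads. No share over all genes is given for such a turn, and 2 against 2 tumours cannot reach a two-sided exact permutation p below 0.333. What the prefix stands for is not given in the sources used here.

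The cultures hold the cancer cells without the tissue of the mouse, and what these cells transcribe within a tumour was not measured. None of the 10 genes was listed in the cultures, at total counts of 6820673 to 14815813 in shC cells and 2243071 to 7959163 in shTAZ cells, and no fold change can be given. Of all genes there, edgeR called 0 of 9828 (0.0%) between shTAZ and shC cells, with 496 (5.05%) at an unadjusted p under 0.05, DESeq2 called 8, and 5.57% had groups that did not overlap. Wwtr1 was lower in shTAZ cells, at 8.21 ± 2.24 CPM against 31.9 ± 7.82 CPM (SD, n = 3 each; exact permutation test, p = 0.10, the smallest possible; edgeR adjusted p = 0.0647). Same-numbered cultures shared the first part of their library code, a pairing that this main test left out. With the cultures paired by number as a replicate block, edgeR called 6 genes and the adjusted p of Wwtr1 was 0.00539. Over all edgeR alternatives run, the adjusted p of Wwtr1 lay between this value and 1. Close relatives of the members were listed in both tables. Fabp5, a carrier related to Fabp4, was at 63.0 ± 19.4 CPM in shC tumours and 121 ± 41.7 CPM in shC cells (SD, n = 4 and n = 3; log2 fold change −0.97, SE 0.36, edgeR adjusted p = 0.0445). In shTAZ libraries Fabp5 was at 103 ± 43.8 and 105 ± 49.5 CPM (edgeR adjusted p = 0.941). Plin2, the droplet coat protein of most cell types, stood at 113 ± 20.2 CPM in shC tumours and 89.2 ± 41.8 CPM in shC cells (edgeR adjusted p = 0.466), and Plin3 at 91.2 ± 32.6 and 70.6 ± 28.0 CPM (edgeR adjusted p = 0.456). Ppard, the relative of Pparg found in most tissues, was at 83.1 ± 13.6 CPM in shC tumours and 84.6 ± 4.90 CPM in shC cells (edgeR adjusted p = 0.878). Car2, a relative of Car3, was at 1.26 to 5.03 CPM in tumours and at 0 to 1.43 CPM in the cultures. Cidea, Cideb, Ppara, Retnla and Retnlg were, like the members, not listed in the cultures. Cidea, of brown fat and also of skin glands, reached 19.8 and 10.9 CPM in shTAZ tumours 3 and 4 and at most 1.25 CPM in the other 6, an order unlike that of Cidec. Retnla, a relative of Retn, was at 32.3 CPM in shC tumour 2 and at most 0.314 CPM in the other 7.

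The lists of fat cell biology, 10 in all (transcription factors, droplet proteins, lipolysis, fatty acid uptake, triglyceride and fatty acid synthesis, insulin response, other secreted proteins, hormone receptors and PPAR partners), held 107 further genes, of which 96 were listed in tumours. Between shTAZ and shC tumours 0 of 67 tested passed edgeR's test, against 0.0% of all genes, with 38 higher, 29 lower and a median log2 fold change of 0.01, against −0.01 for all genes tested. Of these 67, 3 had an unadjusted p under 0.05. In the cultures 0 of 63 passed, with 22 higher, 41 lower and a median of −0.15 (all genes −0.02).

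Of the 90 further genes with at least 20 counts, 12 were highest in the tumours numbered 2, against 4.71% of all genes. They were Thrsp, Pck1, Adrb3, Gpd1, Scd1, Lipe, Slc2a4, Acaca, Ces1d, Rbp4, Slc25a1 and Zfp423. Thrsp, a regulator of fatty acid synthesis in fat and liver, had 16.9 and 31.7 CPM there, 0.0415 CPM in shC tumour 1 and 0 in the other 5. Pck1, the enzyme of glyceroneogenesis, had 5.85 and 8.76 CPM there, and likewise 0.0415 CPM in shC tumour 1 and 0 in the other 5. Adrb3, the β3-adrenergic receptor through which fat cells are told to release fatty acids, was at 5.85 and 3.75 CPM, and elsewhere had 1 read, in shTAZ tumour 4. Gpd1, which makes glycerol phosphate, was at 14.8 and 20.4 CPM against at most 10.5 CPM (shTAZ tumour 3), and Scd1, a desaturase, at 16.9 and 18.3 CPM against at most 6.82 CPM. Lipe, encoding hormone-sensitive lipase, differed less, at 57.8 and 52.5 CPM against 32.4 to 47.1 CPM. Slc2a4, encoding the insulin-responsive glucose transporter GLUT4, was at 51.2 CPM in shC tumour 2 and only 2.50 CPM in shTAZ tumour 2. Acaca (47.5 and 51.7 CPM against at most 43.5 CPM) and Slc25a1 (152 and 186 CPM against at most 148 CPM) had this order by small margins. Plin2, Pnpla2, Acly and Scd2 did not have it. The order was found for 0 of 12 genes of the droplet list, 0 of 8 of uptake, 0 of 5 hormone receptors and 0 of 8 PPAR partners.

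In the comparison of tumours with cultures, 17 of 65 tested genes of these lists rose and 9 fell in shC tumours (edgeR adjusted p under 0.05), against 20.7% and 17.7% of all genes. In shTAZ tumours 20 rose and 6 fell, against 16.2% and 14.2% (30.4% of all genes in either direction, and 38.3% in shC). Of the difference between the effects of shTAZ in tumours and in cells, edgeR called 0 of 9583 genes, with 2.45% at an unadjusted p under 0.05, and 0 of the 65, as did DESeq2. The codes of the cultures begin with FY and those of the tumours with FG or FM, so that tissue and code prefix cannot be told apart in this comparison. Cebpa, a C/EBP factor of fat cells that myeloid cells also use, rose by 6.31 on the log2 scale in shC (SE 0.55, edgeR adjusted p = 2.11e-07), from 0.889 ± 0.465 CPM in cells to 68.3 ± 26.7 CPM in tumours. Its values followed the order of the adipocyte genes only in part, at 107 CPM in shC tumour 2 and 101 CPM in shTAZ tumour 2 but at 121 and 148 CPM in shTAZ tumours 3 and 4. Mgll, encoding monoglyceride lipase, rose by 3.28 (SE 0.60), Bscl2, encoding seipin, by 1.655 (SE 0.23) and Nr1h3, encoding the receptor LXRα, by 1.84 (SE 0.59), with edgeR adjusted p of 0.000477, 4.61e-05 and 0.0221. Gpam, which starts triglyceride synthesis, fell by 5.13 in shC (SE 0.47) and by 3.64 in shTAZ (SE 0.44), and Klf5 fell by 2.18 and 1.69. Apoe, Lcn2, Adm, Angptl4 and C3 were among the genes of secreted proteins that rose in both, and none of these 5 is specific to fat cells.

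The labelled tissue, the mammary fat pad, was checked with marker lists. 4T1 epithelial genes (9 genes such as Krt8 and Epcam) summed to 3448 to 6720 CPM in every tumour, and of 8 genes of the secretory mammary gland 2 were listed. The 10 listed genes of fat stroma, which include Pdgfra and Dcn, summed to 605 CPM in shC tumour 2 and 393 CPM in shTAZ tumour 2, and the other 6 lay between 268 and 417 CPM. Of the 10 stroma genes, 2 were highest in the tumours numbered 2, against 4.71% of all genes. Dpt, encoding dermatopontin, was at 29.2 and 10.8 CPM there and at most 10.5 CPM elsewhere, and Lum, encoding lumican, at 1.72 and 2.08 CPM against at most 0.857 CPM. Brown fat genes summed to 11.01 to 40.9 CPM, and to 19.6 and 28.4 CPM in the tumours numbered 2.

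Fabp4 was read beside the cells that also make it. The 12 endothelial genes summed to 732, 389, 244 and 702 CPM in shC tumours 1 to 4 and to 675, 367, 256 and 458 CPM in shTAZ tumours 1 to 4. Of the tumours without an excess of adipocyte reads, shC tumour 1 had the highest endothelial sum and the highest Fabp4, and shC tumour 3 the lowest of both. The order differed between these ends, as shTAZ tumour 1, with an endothelial sum of 675 CPM, had 23.9 CPM of Fabp4, and shTAZ tumour 4, with 458 CPM, had 47.9 CPM. The 12 macrophage genes summed to 4997, 9655, 9244 and 4903 CPM and to 7949, 9152, 10560 and 11760 CPM in the same order. shTAZ tumour 4 had the highest sum and the second highest Pparg, and shC tumour 4 the lowest of both. Elsewhere the order differed. Pparg was at 2.14 CPM in shC tumour 3, with a sum of 9244 CPM, and at 4.48 CPM in shC tumour 1, with 4997 CPM. The part of these cells in the Fabp4 and Pparg values was not tested.

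shC tumour 2 also stood apart in genes of other tissues, and shTAZ tumour 2 did not. The 10 genes of urothelium and smooth muscle summed to 6015 CPM in shC tumour 2, to 216 CPM in shTAZ tumour 2 and to 203 to 364 CPM in the other 6. In shTAZ tumour 2 Upk2 had 0.834 CPM and Upk3a 0.417 CPM, against 176 and 241 CPM in shC tumour 2 and 0 in the other 6. Epidermal genes, by contrast, summed to 5417 and 4177 CPM in shTAZ tumours 3 and 4, to 143 and 74.2 CPM in the tumours numbered 2 and to 29.6 to 186 CPM in the remaining 4. The part of such tissue in the adipocyte values was not tested.

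**Figure D4:**
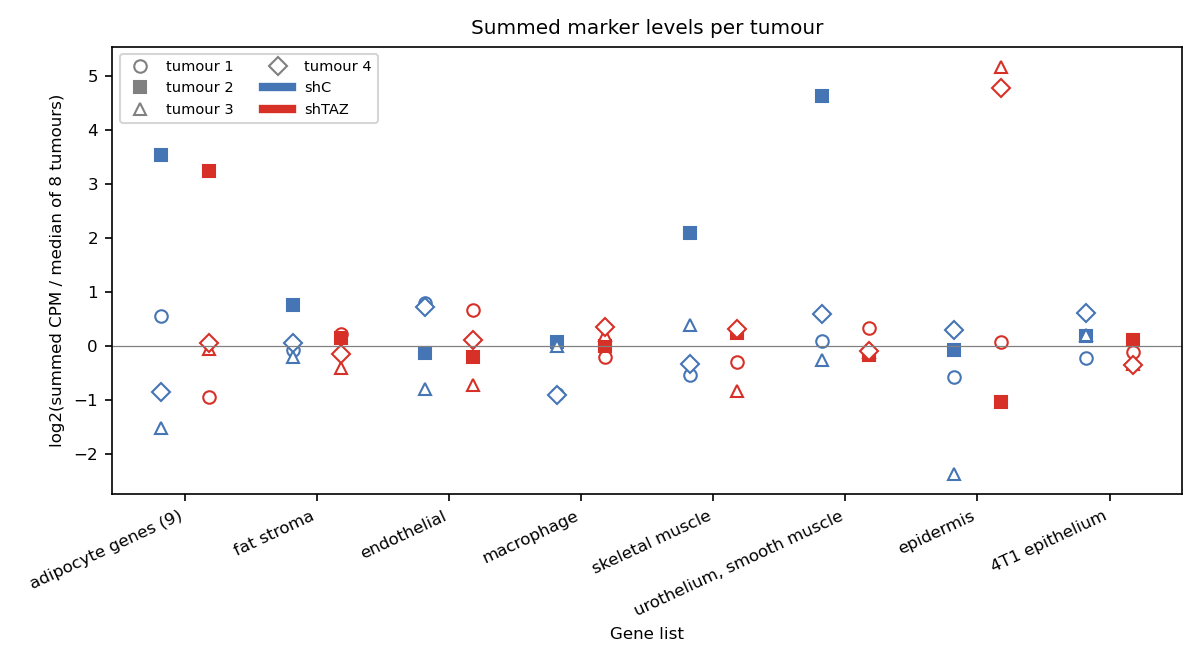
Summed CPM of each list of marker genes in every tumour, as log2 of its ratio to the median of the 8 tumours, for shC (blue) and shTAZ (red) tumours, with a marker shape for each replicate number and filled squares for tumours 2. Both filled squares were high for the adipocyte genes (687 and 555 CPM), only the shC one for urothelium and smooth muscle (6015 CPM), and shTAZ tumours 3 and 4 for epidermis.

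Among all listed genes, 17 had at least 20 counts in all, at least 5 in each of the tumours numbered 2, and a CPM in both that was at least 3 times the highest of the other 6, a rule chosen after the values were seen. Of the 17, 5 were members (Adipoq, Car3, Cfd, Cidec and Retn) and 3 came from the lists above (Thrsp, Pck1 and Adrb3). The other 9 were Cdo1, Clec3b, Dhdh, Fmod, Nnat, Ppp1r1a, Tmtc1, Unc5a and Wnt2, of which Clec3b alone was listed in the cultures. Cdo1, encoding cysteine dioxygenase, was at 6.19 and 10.0 CPM against at most 1.29 CPM, and Fmod, encoding fibromodulin, at 14.8 and 12.9 CPM against at most 3.00 CPM.

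Likeness was also measured as the Pearson correlation of log2 CPM over the 8 tumours among 9010 genes that passed the filter, which leaves out most genes that only 2 tumours carry. The genes most like the summed members were Mrpl34 (r = 0.94, Spearman's rho = 0.95), Nup107 (0.93 and 0.79), Noa1 (0.91 and 0.64), Hmces (0.90 and 0.71) and Mrm2 (0.90 and 0.76), followed by Ppcdc, Pwp1, Serpina3n, Taf6 and Mgme1. Their range was small, as Mrpl34 was at 198 and 197 CPM in the tumours numbered 2 and at 146 to 174 CPM elsewhere. Serpina3n was at 81.5 and 11.7 CPM against at most 7.44 CPM. For Fabp4 the closest were Mrpl34, Uspl1, Mast3, Eid2 and Zbtb40 (r from 0.88 to 0.90), and for Pparg Dolk, Niban1, Nr1h3, Ppp1r12c and Cux2 (r from 0.94 to 0.97). With 8 tumours, 2 of them far from the rest, and libraries that share their depth between genes, these values describe an order and carry no test.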

How the data were processed

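Raw counts per gene of 8 tumours and 6 cultures were the starting point. The authors trimmed reads with cutadapt, mapped them to GRCm38 (mm10) with STAR, and deposited count tables from the UTAP pipeline and HTSeq. The normalized signal, log2 values, log2 fold changes and p-values that the authors deposited, made with DESeq2 and sva, were not used.

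The members and all gene lists were chosen with earlier results of these data known. List genes were named where they passed a test, had the highest means or largest fold changes of their list, or were highest in the tumours rich in adipocyte reads. Results of some genes are left out.

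Genes passed filterByExpr, counts were normalized by TMM, and edgeR 4.0.16 (R 4.3.3) gave quasi-likelihood F tests for 9196 genes in tumours, 9828 in cells (1 surrogate variable, sva 3.50.0) and 9583 of the 11149 genes in both tables. Adjusted p-values follow Benjamini and Hochberg over all genes tested, with 0.05 as the threshold. SEs were derived from the F statistic and the log2 fold change. Single genes were compared by exact two-sided permutation of CPM. The edgeR steps were tested on simulated data. Tumours had 1659736 to 22364483 counts and cultures 2243071 to 14815813. Wilson intervals and the limits for a count of 0 (3 counts) cover counting error only, and p-values the spread between tumours or between cultures. Whether each tumour came from a separate mouse, or each culture was grown separately, is not given in the sources used here, so the spread between cultures may be technical.

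Alternatives were DESeq2 1.42.0, RLE size factors, other filters, a replicate block, a prefix term and leaving out each library. Same-numbered cultures deviated together from their group means (correlations over genes of 0.32, 0.18 and 0.60). The unlike-numbered shC culture 1 and shTAZ culture 2 also did (0.217). Same-numbered shC and shTAZ cultures also shared the first part of their library code. Pairing by number entered only as the replicate block, an alternative, and the main tests of cultures and of tumours did not pair. The main test of the cultures thus left out a pairing that their codes carry.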

Additional observations from a re-analysis of the deposited data

Results flagged for a closer look

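A value far from the other 3 of its group was found in 17 of 38 groups of 4 tumours examined. Chance would give about 1.9 if the groups were independent, which they are not. The members varied together across the same tumours (median r = 0.905 between pairs), so the 17 are not separate findings. All but 1 of the 17 were the tumour numbered 2 of its group.

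In shC tumour 2 these were Adipoq at 29.58 CPM, Plin1 at 2.063, Plin4 at 33.02, Cfd at 338.4, Cidec at 19.26, Car3 at 94.92 and Retn at 27.51 CPM, and the summed members at 686.8 CPM. In shTAZ tumour 2 they were Adipoq at 19.59, Plin1 at 3.335, Cfd at 271.0, Cidec at 12.09, Car3 at 83.8 and Retn at 23.35 CPM, and the summed members at 555.3 CPM. The genes of urothelium and smooth muscle summed to 6015 CPM in shC tumour 2, far above the other shC tumours. The same list was at 305.4 CPM in shTAZ tumour 1, a small step above the other shTAZ tumours.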

How the results depend on the processing

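The tumours had 0 called genes under every alternative run except DESeq2, which called 4, and 0 in each fit that left out 1 tumour. In the cells, where no member was listed, the count of 0 became 8 with DESeq2, 2 with no filter, 1 with at least 10 counts in every library, 1 with the surrogate variable estimated on normalized counts (added after seeing the data), and 0 to 69 when 1 culture was left out (69 without shC cells 3). Under the replicate block, which the labels' numbers and the shared codes support for the cultures, 6 genes were called in cells. For shC, 3675 genes differed between tumours and cells, and 3011 to 3491 when 1 library was left out. For shTAZ the count of 2910 fell to 1921 with at least 10 counts in every library and to 2120 to 2851 without 1 library. The interaction stayed at 0 called in all alternatives run.

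Neither Fabp4 nor Pparg passed the threshold under any alternative run, but their signs turned. The log2 fold change of Fabp4 was 0.0946 when the code prefix entered the model, and ran from −0.95 to 0.38 with 1 tumour left out (positive without shC tumour 2, shTAZ tumour 1 or shTAZ tumour 3). That of Pparg was 0.0729 with the prefix in the model, 0.87 without both tumours numbered 2, and ran from −0.52 to 0.72 with 1 tumour left out. Pparg was lost under the filter of at least 10 counts. The replicate block gave −0.10 for Fabp4 and 0.12 for Pparg, but same-numbered tumours did not all deviate together (correlations over genes of 0.22, 0.13, 0.32 and −0.01). The cause of these turns was not tested. The mean share of the members ranged from 0.00488% to 0.0266% in shC and from 0.00485% to 0.0222% in shTAZ tumours with 1 tumour left out, lowest without the tumour numbered 2. Most members had under 10 reads in 6 tumours, which limits what could be seen there.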
